A study of Mus musculus with 2 samples.

Results

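Chemokines and their receptors were followed as a group of 40 genes, taken by gene symbol from the 49585 rows of a table of raw read counts. They comprised 27 ligand genes (13 of the CC, 13 of the CXC and 1 of the C class) and 13 receptor genes. All 40 symbols were found, and 39 of them had at least 50 reads over both libraries. The exception was Cxcl5, with 44 reads in the Nrp2 knockout library and 0 in the control library. The RNA came from CD11b+ cells that were pulled with magnetic beads from digested subcutaneous tumours. The tumours grew from mouse pancreatic cancer cell lines in the flanks of NRP2f/fCSF1R-iCRE mice on a BL6 background. The test animals received daily intraperitoneal tamoxifen from the time tumours were palpable, to delete the floxed Nrp2 gene, and the control animals carried the same floxed alleles and the same inducible Cre. Tumours were taken at 15 days, and each group's single library was made from the combined RNA of 3 animals. The labels read here give no age. Tamoxifen is named only for the test animals, which means that effects of the drug and of the deletion cannot be told apart. The Csf1r promoter that drives the recombinase is active in monocytes and macrophages, and which of the CD11b+ cells had lost Nrp2 was not tested.

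Chemokines are small secreted proteins that guide migrating cells along gradients. They bind receptors that couple to inhibitory G proteins, and the classes are named for the spacing of their first cysteines. In tumours, the CCR2 ligands draw monocytes from blood, CXCR2 ligands draw neutrophils, CXCR3 ligands draw T and NK cells, and CXCR5 with its ligand CXCL13 organises B cells. Macrophages are both a major source of these ligands and carriers of several of the receptors.

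The knockout library held 68554172 counted reads and the control library 64153676. Nrp2, the targeted gene, had 1017 reads in the knockout library and 9686 in the control library, a 9.71-fold lower level (95% interval 6.95 to 13.9). Itgam, which encodes the CD11b antigen of the selection, was at 422 and 294 CPM in the knockout and control libraries. The 10 macrophage markers examined were all read in both libraries and summed to 33899 CPM in the knockout and 27088 CPM in the control library. Since each group is 1 library, differences could not be set against replicates, and p-values were not computed. The 95% intervals are exact Clopper-Pearson intervals for the ratio, and they cover counting error only. They were computed on reads divided by 24 in the knockout and 47 in the control library. Those are the median reads of genes seen in that library only with more than 4 reads, taken as the reads that 1 captured fragment is worth. The floor, which is the most that a gene seen at 0 could plausibly have had, was 3 fragments, equal to 72 knockout or 141 control reads. Levels are CPM (library-size-scaled counts with TMM factors), and ratios are knockout over control. In pooled bulk RNA, fewer cells of a type and less RNA per cell cannot be told apart.

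The chemokine genes did not all differ in one direction. Summed ligand reads were at 12806 CPM in the knockout and 11349 CPM in the control library, and summed receptor reads at 2922 CPM in the knockout and 2615 CPM in the control library, a ratio of 1.13 for ligands and 1.12 for receptors. Of the ligand sums, Ccl6 alone made up 5053 CPM in the knockout and 2668 CPM in the control library. Under these similar totals, 2 genes were 2-fold or more higher in the knockout library, Cxcl13 and Cxcr4, and 14 were 2-fold or more lower. Of these 14, the interval included 1 for Cxcl12, Xcl1, Ccr6, Cxcr1, Cxcr3 and Cxcr5, all thinly read. Among all 14420 genes with at least 50 reads, 10.8% were 2-fold or more higher and 14.7% 2-fold or more lower, against 5.13% and 35.9% of the 39 chemokine genes. The interval lay wholly above 1 for 9 members and wholly below 1 for 17 (12.6% and 11.1% of all genes). It lay wholly past 2-fold for 1 higher member, Cxcl13, and for 5 lower members, Cx3cr1, Ccl24, Ccr3, Ccl22 and Ccr2 (0.853% and 1.03% of all genes). Over the 30 more deeply read members (1000 reads or more in total), 2 were 2-fold or more higher and 7 2-fold or more lower, where 4.5% and 4.02% of the 9054 genes at that depth were. Intervals of these 30 members lay wholly above 1 for 9 and wholly below 1 for 16, or 30% and 53.3%. Of the 9054 genes, 18.7% and 15.2% had such intervals. The median log2 ratio was -0.42 for ligands and -1.12 for receptors, beside -0.01 for all genes. At the deeper limit the medians were -0.18 and -0.02, beside 0.04, so the low receptor median came with the thinly read members. The middle receptor by ratio was Cxcr5 itself, with reads under the floor in both libraries.

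**Figure D1:**
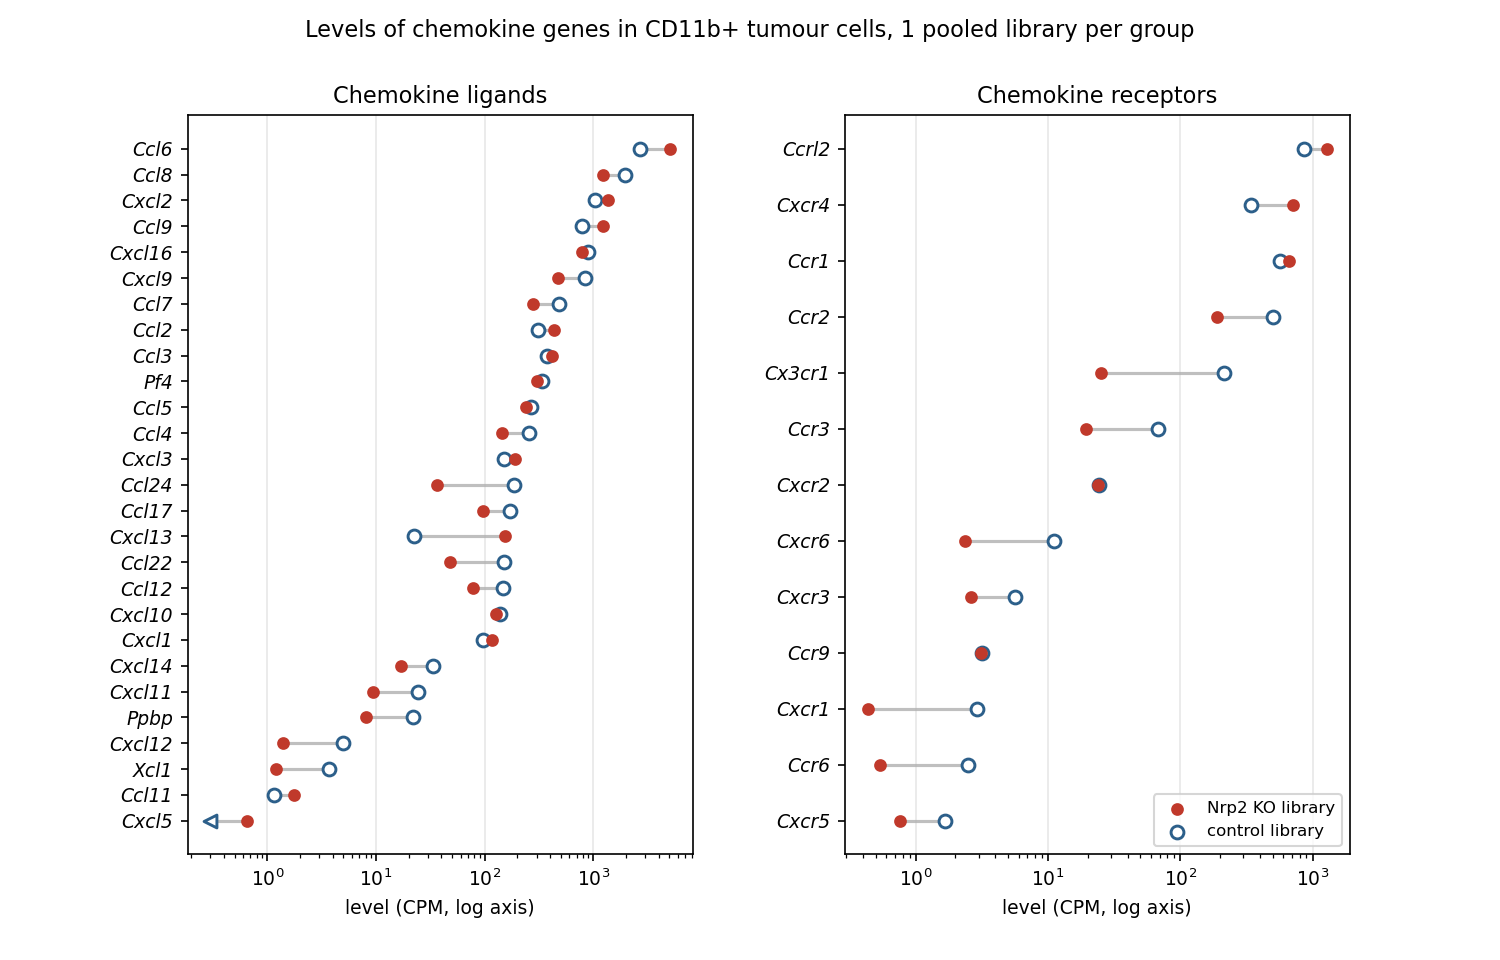
Level of each chemokine ligand (left) and receptor (right) gene in CPM on a log axis, with the Nrp2 knockout library as filled red points and the control library as open blue circles, 1 pooled library each. The open triangle marks Cxcl5, which was listed at 0 in the control library and is drawn at the edge. Cxcl13 has the widest gap toward the knockout library, and Cx3cr1 and Ccl24 have the widest gaps in the other direction among genes with at least 1000 reads.

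Per length of transcript, Ccl6 and Ccl8 were the most abundant ligands of these cells. Ccl6, a CC chemokine of rodent myeloid cells that binds CCR1, was at 2815 RPKM (CPM per kilobase of merged exons) in the knockout and 1486 RPKM in the control library. It made up 29.5% of the summed ligand RPKM in the knockout library, where it ranked first, and 14.6% in the control library. Ccl8, whose mouse product signals through CCR8, was at 2403 RPKM in the knockout and 3801 RPKM in the control library, or 25.2% of the knockout and 37.4% of the control ligand sum. The order of these 2 ligands was thus exchanged between the libraries. Next in the knockout library were Cxcl2, Ccl3 and Pf4, with 654, 538 and 416 RPKM, against 501, 493 and 468 RPKM in the control library. Behind Ccl8 and Ccl6 in the control library came Ccl7, at 349 RPKM in the knockout and 599 RPKM in the control library. Among receptors, Ccrl2, Cxcr4, Ccr1 and Ccr2 together held most of the summed receptor RPKM. Ccrl2 was at 496 RPKM in the knockout and 334 RPKM in the control library. Cxcr4 was at 391 RPKM in the knockout and 189 in the control library. Ccr1 was at 233 RPKM in the knockout and 201 in the control library, and Ccr2 at 27.9 in the knockout and 74.3 in the control library.

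**Figure D2:**
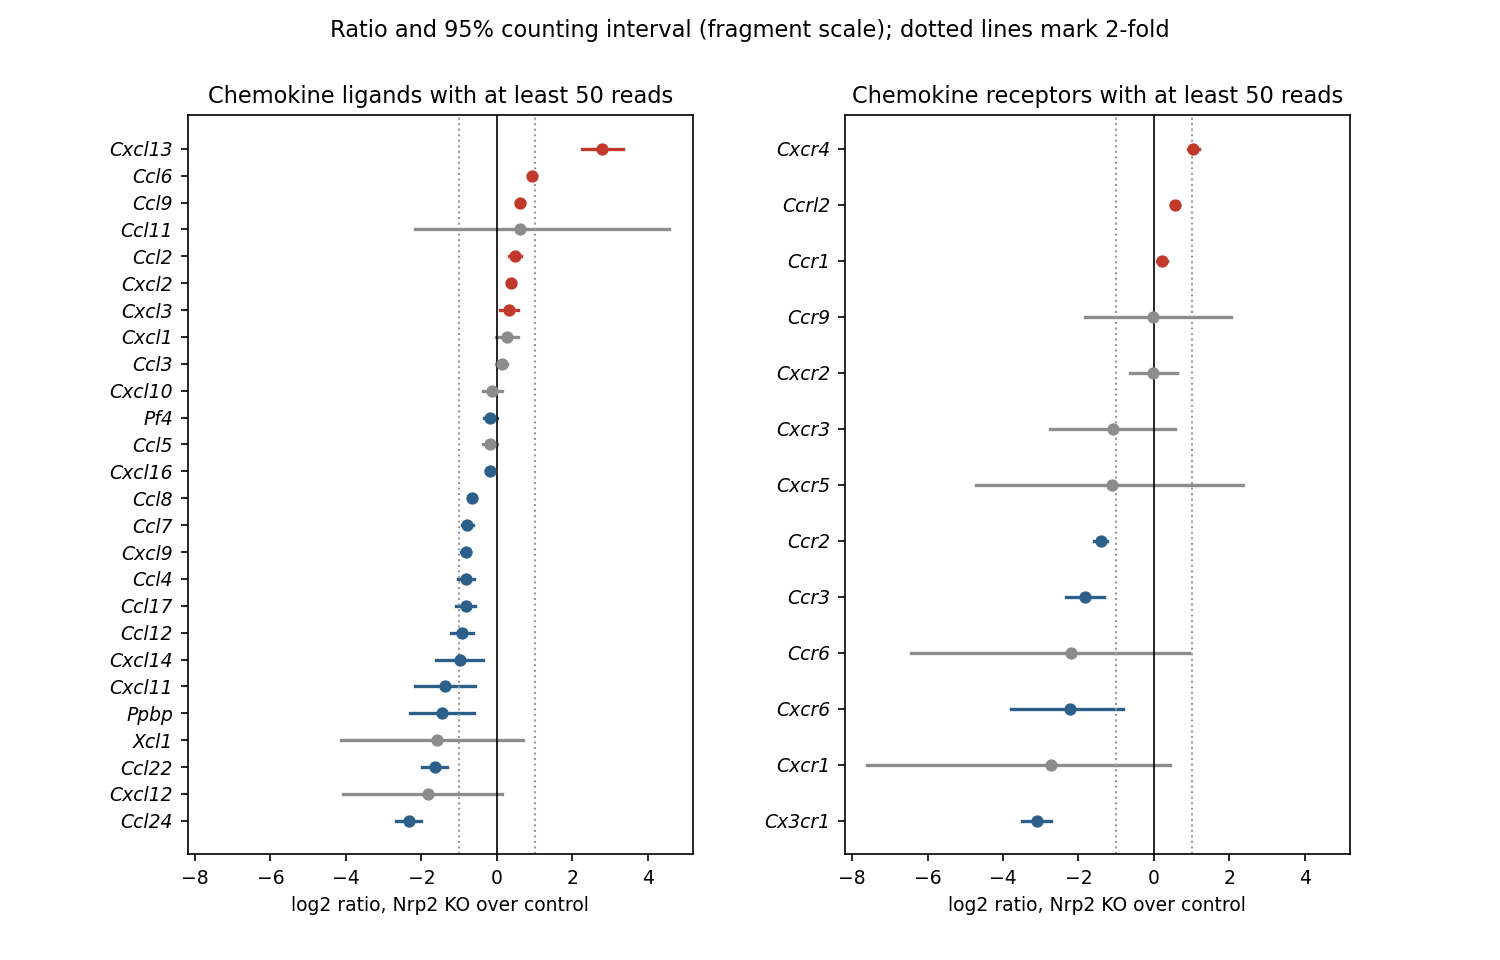
Log2 ratio of knockout over control for each member with at least 50 reads, with the 95% interval on the fragment scale; red marks intervals above 0, blue below 0 and grey those that include 0, and dotted lines mark 2-fold. Intervals are narrow for Ccl6 and Ccl8 and span several log2 units for Cxcr1, Ccr6, Cxcr5 and Ccl11.

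The CC ligands lie mostly in a pair of clusters on chromosome 11, and neighbours within each cluster went both ways. The cluster of monocyte attractants (GRCm38 chromosome 11, 82035571 to 82116799) holds Ccl2, Ccl7, Ccl11, Ccl12 and Ccl8. Ccl2, the main CCR2 ligand, was at 436 CPM in the knockout and 312 CPM in the control library. That is 1.4-fold higher in the knockout library (1.25 to 1.56). Its neighbours with reads to judge went the other way. Ccl7, which binds CCR1, CCR2 and CCR3, was at 279 CPM in the knockout and 479 CPM in the control library, 1.72-fold lower in the knockout library (1.55 to 1.91). Ccl12, a mouse CCR2 ligand, was at 78.3 CPM in the knockout and 148 CPM in the control library, 1.89-fold lower (1.56 to 2.3), and Ccl8 was at 1228 CPM in the knockout and 1943 CPM in the control library, 1.58-fold lower (1.5 to 1.66). Ccl11, the eosinophil attractant eotaxin, had only 117 and 75 reads in the knockout and control libraries, the second of them under the floor of 141 reads.

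The second cluster (chromosome 11, 83525778 to 83664683) holds Ccl5, Ccl9, Ccl6, Ccl3 and Ccl4. Ccl6 was at 5053 CPM in the knockout and 2668 CPM in the control library. It was 1.89-fold higher in the knockout library (1.83 to 1.96), the narrowest interval of the group. Ccl9, the adjacent gene and another rodent CCR1 ligand, was at 1215 CPM in the knockout and 792 CPM in the control library, 1.53-fold higher (1.43 to 1.64). Ccl3, which encodes the macrophage inflammatory protein MIP-1α, was at 412 CPM in the knockout and 378 CPM in the control library. Its ratio was 1.09, and the interval, 0.984 to 1.21, includes 1. Its neighbour Ccl4, which encodes MIP-1β, was at 144 CPM in the knockout and 255 CPM in the control library. It was lower in the knockout library, 1.77-fold (1.53 to 2.05), with an interval that does not overlap that of Ccl3. Ccl5, a chemokine of T cells, NK cells and activated macrophages, was at 237 CPM in the knockout and 268 CPM in the control library, a ratio of 0.886 (0.78 to 1.01).

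The CC ligands outside chromosome 11, Ccl24, Ccl22 and Ccl17, were all lower in the knockout library. Ccl24, or eotaxin-2, which attracts eosinophils through CCR3 and is made by alternatively activated macrophages, had 2457 reads in the knockout and 12193 in the control library. Its level of 36.7 CPM in the knockout library was 5.06-fold below the 186 CPM of the control library (4.01 to 6.43). Ccl22 and Ccl17, the ligands of CCR4, neighbour each other on chromosome 8 (94745590 to 94812036) and are typical of dendritic cells and some macrophages. Ccl22 was at 47.6 CPM in the knockout and 149 CPM in the control library, 3.14-fold lower in the knockout library (2.51 to 3.93). Ccl17 was at 97.0 CPM in the knockout and 172 CPM in the control library, 1.77-fold lower (1.48 to 2.12), so the difference was smaller than for Ccl22 by intervals that do not overlap. Dendritic cell markers were lower too: 8 of 10 were 2-fold or more lower and 0 2-fold or more higher, and their summed level was 152 CPM in the knockout and 425 CPM in the control library. Among these, Ccr7 and Fscn1, genes of migrating mature dendritic cells, were 2.68-fold (2.17 to 3.31) and 2.7-fold (2.09 to 3.49) lower in the knockout library. Xcr1, also counted among the lower markers, had 0 reads in the knockout and 111 in the control library. Its control reads were under the floor of 141 reads, and its interval includes 1. The part of dendritic cell number in the levels of Ccl22 and Ccl17 was not tested.

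Cxcl13, the CXCR5 ligand that attracts B cells and follicular helper T cells, had the highest ratio of all members with at least 50 reads. It had 10381 reads in the knockout library and 1480 in the control library, or 155 CPM in the knockout and 22.5 CPM in the control. The ratio was 6.87 (4.78 to 10.2), and on undivided reads the interval was 6.51 to 7.26. Cxcl13 is ENSMUSG00000023078, on the plus strand of GRCm38 chromosome 5 from 95956951 to 95961068. B cell markers went the other way, with 7 of 8 2-fold or more lower, 0 2-fold or more higher and summed levels of 22.3 CPM in the knockout and 209.7 CPM in the control library.

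The neutrophil attractants Cxcl1, Cxcl2 and Cxcl3, ligands of CXCR2, were slightly higher in the knockout library by similar ratios. They lie together on chromosome 5 with Cxcl5, Ppbp and Pf4 (90759360 to 90905938). Cxcl2 was at 1352 CPM in the knockout and 1036 CPM in the control library, a ratio of 1.3 (1.23 to 1.39). Cxcl3 was at 191 CPM in the knockout and 152 CPM in the control library with a ratio of 1.26 (1.07 to 1.48), and Cxcl1 at 117 CPM in the knockout and 97.0 CPM in the control library with a ratio of 1.2 (0.983 to 1.48). Only the interval of Cxcl1 includes 1 among these 3 genes. Their promoters are shown because these neighbours had alike ratios and share a stretch of letters. The windows are the 250 bases before the RefSeq start (GRCm38.p6, plus strand, 5′ to 3′), and capitals mark matches to a loose κB pattern, GGG and CC with any 5 bases between them, on either strand, overlapping matches included.
Cxcl1, chr5:90890995-90891244: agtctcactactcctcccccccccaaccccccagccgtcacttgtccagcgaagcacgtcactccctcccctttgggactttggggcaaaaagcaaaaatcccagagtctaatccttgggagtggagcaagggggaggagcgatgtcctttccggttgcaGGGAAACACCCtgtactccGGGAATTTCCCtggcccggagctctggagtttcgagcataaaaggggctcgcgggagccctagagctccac
Cxcl2, chr5:90903649-90903898: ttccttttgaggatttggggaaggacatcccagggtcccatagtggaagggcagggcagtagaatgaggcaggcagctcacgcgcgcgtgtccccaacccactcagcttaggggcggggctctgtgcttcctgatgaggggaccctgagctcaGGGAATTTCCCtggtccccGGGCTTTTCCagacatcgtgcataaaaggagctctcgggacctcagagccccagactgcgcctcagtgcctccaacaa
Cxcl3, chr5:90785851-90786100: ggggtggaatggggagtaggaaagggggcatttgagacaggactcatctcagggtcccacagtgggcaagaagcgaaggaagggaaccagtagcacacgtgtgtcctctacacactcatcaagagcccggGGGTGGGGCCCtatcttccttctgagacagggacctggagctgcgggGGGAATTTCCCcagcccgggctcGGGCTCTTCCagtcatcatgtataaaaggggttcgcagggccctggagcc
Each window holds GGGAATTTCC, beginning 71, 97 and 73 bases before the start of Cxcl1, Cxcl2 and Cxcl3. These 10 letters, on either strand, occur in 23 of 27025 windows of the same length, or 0.0851%, and among the 30 members with a window also in that of Ccr3. Ccr3 was 3.54-fold lower in the knockout library. The overlapping letters GGAATTTCCC, also in each of these windows, occur in 25 of 27025 windows. Among members they were found besides in the window of Cxcl10, which had a ratio of 0.922. The letters were looked up because the windows of Cxcl1, Cxcl2 and Cxcl3 share them, so a low count elsewhere is only a description. Whether these letters bear on the ratios was not tested. The loose pattern is common, in 45.4% of all windows and for 17 of the 30 members, with 1 window counted per gene symbol. A match is a description of the letters and not a site that was shown to be bound.

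Ppbp and Pf4, the other genes of that cluster with reads to judge, are best known from platelets. Ppbp was at 8.03 CPM in the knockout and 21.9 CPM in the control library, 2.73-fold lower (1.53 to 4.93). Pf4 was far more abundant, at 299.9 CPM in the knockout and 337 CPM in the control library, with a ratio of 0.889 (0.793 to 0.998). Of 8 platelet markers, 4 were at 0 in both libraries, namely the glycoprotein genes Gp1ba, Gp1bb, Gp5 and Gp9, and the list summed to 43.2 CPM in the knockout and 22.8 CPM in the control library. The 4 measured platelet markers had ratios above 1 as fitted (median log2 ratio 0.87), unlike Ppbp. Of their intervals, 3 include 1 and 1 lies above 1. Whether platelets had a part in the levels of Ppbp and Pf4 was not tested.

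The interferon-inducible ligands of CXCR3 lie side by side on chromosome 5 (92321347 to 92365485) and differed in their ratios. Cxcl9 was at 472 CPM in the knockout and 834 CPM in the control library, 1.77-fold lower (1.63 to 1.91). Cxcl11 had 624 reads in the knockout and 1580 in the control library, which is 2.58-fold lower (1.5 to 4.49). GENCODE annotates it as a polymorphic pseudogene, and 41.7% of its exon bases lie under Gm2673 on the opposite strand, which had 0 reads in both libraries. Cxcl10 was at 126 CPM in the knockout and 137 CPM in the control library, a ratio of 0.922 (0.771 to 1.11) that stands apart from the interval of Cxcl9. Of 9 listed genes of interferon gamma signalling, 2 were 2-fold or more lower in the knockout library and 0 were 2-fold or more higher. Among all genes, 14.7% and 10.8% were. Intervals of the 9 genes lay below 1 for 3, above 1 for 1 and included 1 for 5. The lowest log2 ratio of the list was -1.56, and 1 interval lay wholly past 2-fold lower. Irf1 of this list, an interferon-induced transcription factor gene, had a ratio of 0.958 (0.86 to 1.07). Ifng, the interferon gamma gene, had 267 and 558 reads in the knockout and control libraries, with an interval that includes 1. The promoters of Cxcl9 and Cxcl10 are shown as neighbours that differed. Their windows are the 250 bases before the RefSeq start on the minus strand of GRCm38.p6, written 5′ to 3′. Capitals mark the loose κB pattern, the ISRE core, GAAA and GAAA with any 2 bases between, the GAS pattern TTCNNNGAA and the AP-1 pattern TGANTCA.
Cxcl9, chr5:92328080-92328329: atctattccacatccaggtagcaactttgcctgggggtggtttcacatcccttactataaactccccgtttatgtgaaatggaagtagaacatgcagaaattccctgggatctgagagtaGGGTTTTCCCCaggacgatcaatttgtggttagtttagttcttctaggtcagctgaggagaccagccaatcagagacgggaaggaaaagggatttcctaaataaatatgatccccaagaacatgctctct
Cxcl10, chr5:92348890-92349139: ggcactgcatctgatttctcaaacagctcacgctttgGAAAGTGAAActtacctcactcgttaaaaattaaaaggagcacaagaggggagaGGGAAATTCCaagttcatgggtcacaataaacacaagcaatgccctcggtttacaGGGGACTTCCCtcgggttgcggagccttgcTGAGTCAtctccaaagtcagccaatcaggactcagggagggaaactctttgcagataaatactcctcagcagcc
The Cxcl10 window held 1 ISRE core match, GAAAGTGAAA, beginning 213 bases before the start, and 1 AP-1 match, TGAGTCA, at 74 bases, beside its loose κB matches. The Cxcl9 window held matches to the loose κB pattern and to none of the other patterns. An element with other letters would not be matched, so this does not show that the window lacks an interferon element. Whether the matches bear on the ratios was not tested. The ISRE core was present in 3.04% of all windows, the GAS pattern in 7.18% and the AP-1 pattern in 6.87%.

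The remaining CXC ligands and Xcl1 differed in depth. Cxcl16, a transmembrane ligand of CXCR6 that macrophages and dendritic cells carry, was at 791 CPM in the knockout and 896 CPM in the control library, a ratio of 0.883 (0.823 to 0.947). Of its exon bases, 18.3% lie under Zmynd15 on the opposite strand, which had 3565 and 5152 reads in the knockout and control libraries. Cxcl14 was at 16.8 CPM in the knockout and 33.2 CPM in the control library, 1.98-fold lower in the knockout library (1.29 to 3.03). Cxcl12, the CXCR4 ligand made mainly by stromal cells, had 94 reads in the knockout and 329 in the control library, and Xcl1, a product of T and NK cells, had 81 in the knockout and 240 in the control library. Both were over 3-fold lower in the knockout library as fitted, with intervals that include 1. Of 9 fibroblast markers, 1 was 2-fold or more higher and 3 were 2-fold or more lower, with sums of 205 CPM in the knockout and 357 CPM in the control library, and of 7 endothelial markers 0 were 2-fold or more higher and 6 2-fold or more lower, with sums of 22.7 CPM in the knockout and 87.1 CPM in the control library. The part of fibroblast and endothelial cell number in the level of Cxcl12 was not tested. Adipocyte markers went the other way, with 6 of 7 2-fold or more higher and 0 2-fold or more lower, and summed to 109 CPM in the knockout and 51.5 CPM in the control library. Among them Adipoq, Plin1 and Retn had 0 control reads, and Cfd had 3027 reads in the knockout and 253 in the control library. Epithelial markers were 2-fold or more lower for 3 of 7 genes and higher for 0, with sums of 129 CPM in the knockout and 194 CPM in the control library. Whether the cells behind these markers had a part in the members' levels was not tested.

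Of the 13 receptor genes, 3 (23.1%) had intervals above 1 and 4 (30.8%) had intervals below 1. For all genes with at least 50 reads these shares were 12.6% and 11.1%. For those with at least 1000 reads over both libraries they were 18.7% and 15.2%. Cxcr4, the CXCL12 receptor that retains leukocytes in marrow and tissue, was at 707 CPM in the knockout and 343 CPM in the control library. It was 2.07-fold higher in the knockout library (1.87 to 2.29). Under upper-quartile scaling its log2 ratio was 0.99, and with library totals only 0.98, just short of 2-fold. Ccrl2, an atypical receptor that presents the attractant chemerin and does not signal for migration, was the most abundant receptor gene per length in both libraries. It was at 1288 CPM in the knockout and 867 CPM in the control library, 1.49-fold higher in the knockout library (1.39 to 1.59). Ccr1, the receptor of CCL3, CCL6 and CCL9 on monocytes, macrophages and neutrophils, was at 659.8 CPM in the knockout and 569 CPM in the control library, 1.16-fold higher (1.07 to 1.26).

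Cx3cr1, the fractalkine receptor of patrolling monocytes and of many resident macrophages, had the lowest ratio of the 39 genes. It had 1684 reads in the knockout and 14159 in the control library, or 25.1 CPM in the knockout and 216 CPM in the control library. It was 8.58-fold lower in the knockout library (6.6 to 11.3). Ccr2, which brings classical monocytes out of the marrow, was at 189 CPM in the knockout and 502 CPM in the control library, 2.66-fold lower (2.37 to 2.99). Monocyte markers did not share this direction as a list: 4 of 10 were 2-fold or more higher and 2 2-fold or more lower, with summed levels of 11700 CPM in the knockout and 3755 CPM in the control library. Most of that sum was Chil3, which some activated macrophages also make, at 6067 CPM in the knockout and 338 CPM in the control library, and Fn1. Treml4, a gene of patrolling monocytes, was 9.2-fold lower (3.99 to 24.8) and Plac8 3.16-fold lower (2.68 to 3.73). Ly6c2, which marks classical monocytes, was 2.75-fold higher (2.14 to 3.56), opposite to Ccr2. The macrophage gene Csf1r was at 1842 CPM in the knockout and 2205 CPM in the control library, a ratio of 0.835. Macrophage markers went both ways, with intervals above 1 for 4 of 10 and below 1 for 5. Of these 10 markers, 0 were 2-fold or more higher and 0 were 2-fold or more lower. Whether monocyte or macrophage number had a part in the levels of Cx3cr1 and Ccr2 was not tested.

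Ccr3, the eotaxin receptor of eosinophils, was at 19.2 CPM in the knockout and 68.1 CPM in the control library, 3.54-fold lower in the knockout library (2.51 to 5.04). Eosinophil markers went with it in part, with 3 of 6 measured markers 2-fold or more lower and 1 2-fold or more higher. The higher marker had a log2 ratio of 2.46, with an interval wholly past 2-fold. Intervals of the measured markers lay below 1 for 2, above 1 for 1 and included 1 for 3. They summed to 135 CPM in the knockout and 252 CPM in the control library. Siglecf, a defining eosinophil surface gene, was 2.61-fold lower (1.77 to 3.88), the granule gene Prg2 was at 6.64 CPM in the knockout and 13.3 CPM in the control library, and the granule gene Epx was at 0 in both. Whether eosinophil number had a part in the level of Ccr3 was not tested.

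Receptors of lymphocytes were thinly read in these CD11b+ preparations. Cxcr6, a receptor of tissue T cells and NKT cells, had 159 reads in the knockout and 724 reads in the control library, 4.63-fold lower (1.77 to 13.8). Cxcr3 of activated T and NK cells had 176 reads in the knockout and 367 in the control library, and Ccr6 had 36 in the knockout and 163 in the control library, both with intervals that include 1. Cxcr5 of B cells had 51 reads in the knockout and 109 in the control library, each under the floor of its library, so no fold is given. T cell markers were 2-fold or more lower for 11 of 12 genes and 2-fold or more higher for 0, and NK markers for 7 and 0 of 9. The T cell list summed to 67.8 CPM in the knockout and 207 CPM in the control library, the NK list to 45.4 CPM in the knockout and 136 CPM in the control library. The part of lymphocyte number in the levels of Cxcr6, Cxcr3 and Xcl1 was not tested. Ccr9, a receptor of gut-homing T cells and plasmacytoid dendritic cells, had 209 reads in the knockout and 207 in the control library, with a ratio of 0.99 (0.282 to 4.12), and Siglech, a plasmacytoid marker, had 228 in the knockout and 203 in the control library.

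The neutrophil receptors Cxcr2 and Cxcr1 are neighbours on chromosome 1 (74153989 to 74194631). Cxcr2 was at 24.1 CPM in the knockout and 24.4 CPM in the control library, with a ratio of 0.985 (0.643 to 1.53), so differences of up to 1.53-fold upward were within counting error. Cxcr1 had 29 reads in the knockout and 190 in the control library, the first under the floor of 72 reads, with an interval that includes 1. Neutrophil markers were not uniform, with 4 of 9 2-fold or more higher and 0 2-fold or more lower and sums of 1338 CPM in the knockout and 1041 CPM in the control library. Csf3r, the G-CSF receptor gene, had a ratio of 0.985 (0.841 to 1.16), near that of Cxcr2, while Ngp of neutrophil granules had 1033 reads in the knockout and 2 in the control library.

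**Figure D3:**
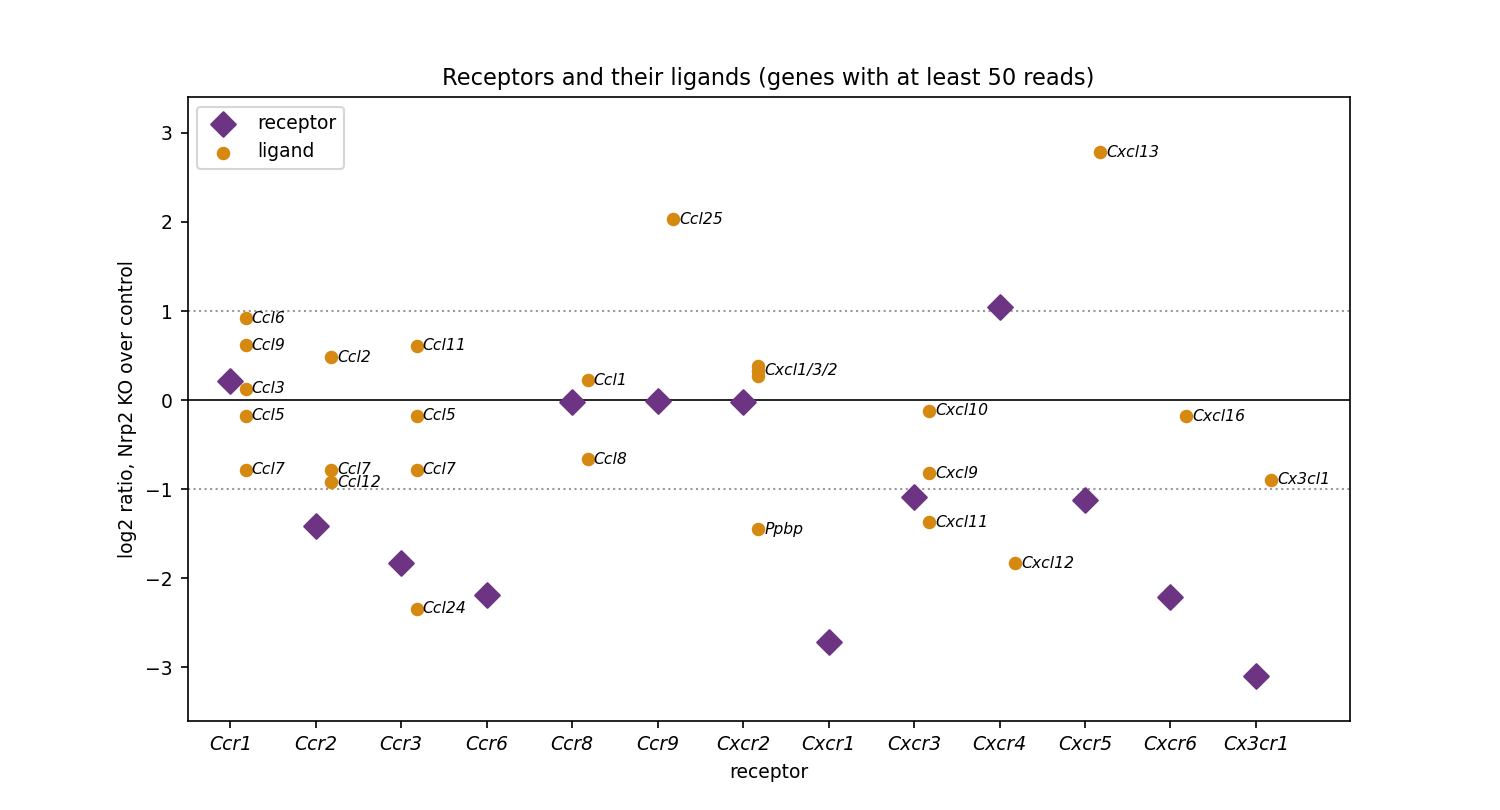
Log2 ratio of knockout over control for receptors of the listed pairs with at least 50 reads (diamonds) and for their ligands with at least 50 reads (circles). Genes are arranged by receptor, and dotted lines mark 2-fold. Ccrl2, Ccr7 and Ackr3 are in no listed pair and are not drawn. The ligands of Ccr1 spread on both sides of 0 around a receptor near 0, Cxcr5 is drawn from reads under the floor in both libraries, and Xcr1, at 0 reads in the knockout library, is not drawn.

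Paired with their receptors, ligands did not follow one rule. Of 32 receptor and ligand pairs from general knowledge, 27 had both genes at 50 reads or more. In 5 of these both intervals lay below 1, and in 2 both lay above 1. In 1 the ligand's lay above and the receptor's below 1, and in 1 it was the reverse. In the other 18 at least 1 interval included 1. The pairs are not separate units, since Ccl7 is listed with Ccr1, Ccr2 and Ccr3, and Ccr1 with 5 ligands. Of the 39 single members, 17 had intervals below 1 and 9 above 1. The axis of Ccr3 was lower on both sides through Ccl24 and Ccl7, and that of Ccr2 through Ccl7 and Ccl12. Ccl2 was the ligand that was higher beside a lower receptor, Ccr2. The CCR2 ligands summed to 793 CPM in the knockout and 939.6 CPM in the control library. The axis of Ccr1 was higher on both sides through Ccl6 and Ccl9, with Ccl7 as its lower ligand. The listed CCR1 ligands summed to 7197 CPM in the knockout and 4585 CPM in the control library, a ratio of 1.57. Most of both sums was Ccl6, at 5053 CPM in the knockout and 2668 CPM in the control library. For Cxcr4 and Cxcl12 the log2 ratios were 1.05 and -1.83, the second from 94 reads in the knockout and 329 in the control library. For Cxcr6 and Cxcl16 they were -2.21 and -0.18, both with intervals below 1. Cxcl13 had a log2 ratio of 2.78, whereas its receptor gene Cxcr5 was under the floor in both libraries. Ccr4, the receptor of Ccl17 and Ccl22, had 24 reads in the knockout and 23 in the control library, so that axis was read on its ligand side only. Cx3cl1, the ligand of Cx3cr1, had 209 reads in the knockout and 381 in the control library with an interval that includes 1.

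Of 8 ligand genes outside the 40, 4 were at 0 in both libraries and 4 had 50 reads or more. Of 9 further receptor genes, 4 were at 0 in both and 4 had 50 reads or more, the unread ones including the atypical receptors Ackr1, Ackr2 and Ackr4. Ackr3, a scavenger of CXCL12, was at 10.3 CPM in the knockout and 10.2 CPM in the control library, a ratio of 1.01 (0.517 to 2.05). Genes that carry receptor signals mostly differed by less than 2-fold. Of 29 measured signalling genes, 0 were 2-fold or more higher and 1 (3.45%) was 2-fold or more lower. The median log2 ratio was -0.12. Of all genes with at least 50 reads, 10.8% were 2-fold or more higher and 14.7% lower. Of those with at least 1000 reads over both libraries, 4.5% and 4.02% were. Intervals of the signalling genes lay wholly above 1 for 6 and wholly below 1 for 11. Those are 20.7% and 37.9%, beside 12.6% and 11.1% of all genes. With the 1000-read limit applied, the background shares were 18.7% and 15.2%. The signalling share above 1 was thus close to that of deeply read genes, and the share below 1 was larger. The signalling gene that was 2-fold or more lower was Rgs18, a regulator of G protein signalling, at 2.4-fold (1.41 to 4.09). Rgs1, which dampens chemokine receptor signals, was 1.48-fold higher (1.39 to 1.57), and Rac2, a GTPase of leukocyte migration, 1.58-fold lower (1.39 to 1.79). Among 8 measured proteases that trim or shed chemokines, 2 were 2-fold or more lower and 0 2-fold or more higher. These were Mmp9, at 3.05-fold (2.66 to 3.49), and Dpp4, at 2.79-fold (1.72 to 4.59).

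**Figure D4:**
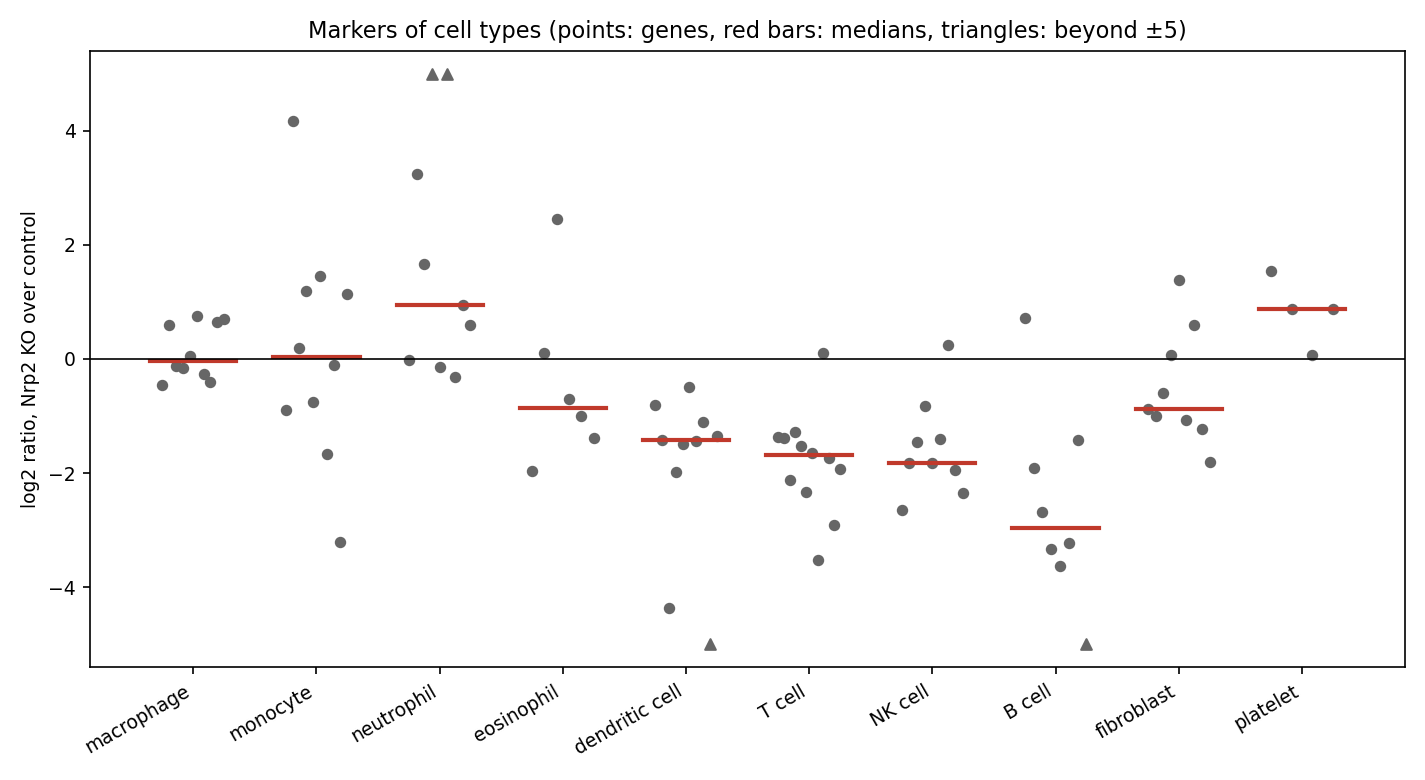
Log2 ratio of knockout over control for cell type markers, 1 point per gene with at least 50 reads, with red bars at the median of each list and triangles for genes beyond 5 log2 units. Dendritic, T, NK and B cell markers lie mostly below 0, macrophage markers scatter around 0, and neutrophil markers mostly lie at or above 0.

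**Figure D5:**
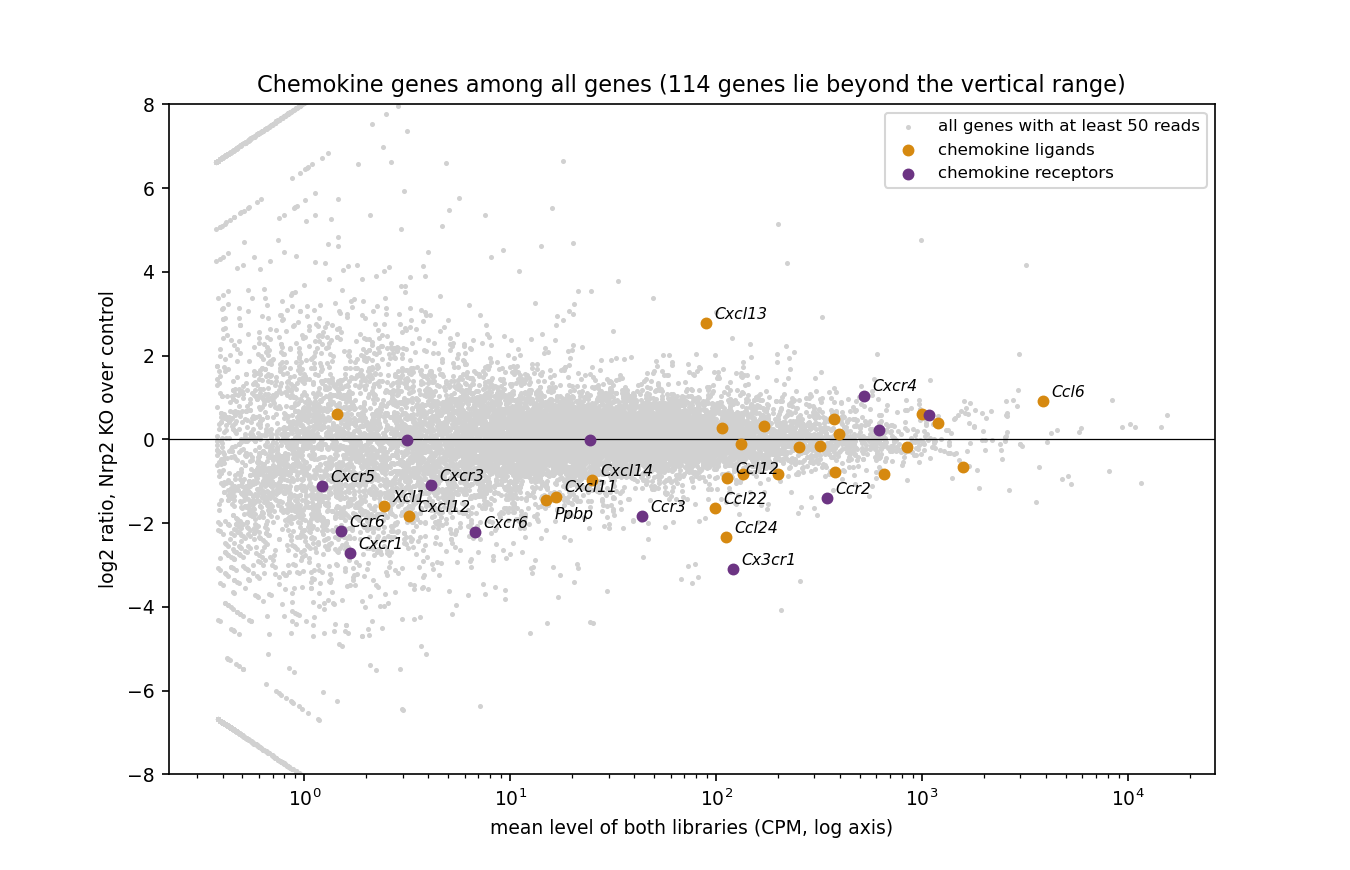
Log2 ratio of knockout over control against the mean level of both libraries in CPM on a log axis, for all genes with at least 50 reads (grey), chemokine ligands (orange) and chemokine receptors (purple). Cxcl13, Ccl24 and Cx3cr1 lie at the edge of the grey cloud at their level, while Cxcr1, Ccr6 and Cxcr5 lie within the wide scatter at low levels.

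The authors' deposited table gave the members log2 fold changes within 0.018 of those computed here for the 39 genes with at least 50 reads. In the authors' deposited table the adjusted p-value was under 0.05 for 0 of the 40 members and for 0 of all genes, and the smallest was 0.331, for Cx3cr1. Unadjusted p-values in the authors' deposited table were under 0.05 for 7 members. They were Cx3cr1, Cxcl13, Ccl24, Ccl22, Ccr3, Ccr2 and Cxcr4. A test without replicates has to borrow its spread from other genes, so these values describe the libraries. For reads that near-identical genes could share, the largest share of a member's 50-base words found in transcripts of another gene was 5.84%, for Cxcl2.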

How the data were processed

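Poly(A) RNA pooled from CD11b+ tumour cells was sequenced as 1 TruSeq stranded library per group (labels' protocols). Cutadapt, HISAT2, featureCounts and GRCm38 appear in the submitters' processing notes without versions. The authors deposited whole-number counts of read 1 per Ensembl gene, without normalisation. Per the file headers, their comparison table holds a normalised signal, which is the counts divided by 1.01 (knockout) or 0.995 (control), a log2 fold change with its standard error, a score that is their quotient, and p-values. Annotation release and strand use in counting: not given in the sources used here.

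Symbols for 49326 of 49585 identifiers, coordinates and merged exon lengths came from GENCODE M21 (GRCm38), and promoters from RefSeq (GRCm38.p6, 30 of 40 members matched). Library sizes were scaled with TMM (edgeR 4.0.16, R 4.3.3). Log2 ratios used a prior of 0.5 counts, where the 2 libraries together held 50 counts or more. Intervals (SciPy 1.17.1) and scaling were tested on simulated data. No test across genes was run, because 1 library per group leaves no residual degrees of freedom. Groups were taken from the sample titles. The members, lists, receptor pairs and motifs were chosen with earlier results of these data known. All members are named; of other lists, receptor or ligand partners and genes with large ratios. Alternatives were DESeq2 1.42.0 size factors, upper-quartile factors, library totals, other count limits, priors and interval scales, and, chosen after seeing the data, the authors' size constants. 1 gene outside the members is not reported here.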

Additional observations from a re-analysis of the deposited data

How the results depend on the processing

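The members 2-fold or more higher numbered 2, and 1 under upper-quartile factors and with library totals, where Cxcr4 fell short, and 3 at limits of 10 and 1 counts, which admit Cxcl5. Those 2-fold or more lower numbered 14, and 12 to 15 under the alternatives. The 1558 genes 2-fold or more higher became 3307 at a limit of 10 counts, 4131 at 1 count, 825 at 200 counts and 909 with a prior of 1 fragment; the 2124 lower genes became 3272 at 1 count and 991 at 200 counts. Members with an interval wholly past 2-fold numbered 1 higher and 5 lower, and 2 and 12 on undivided reads, which treat every read as independent. With reads per fragment at the upper quartile (38 in the knockout, 62 in the control library) they stayed at 1 and 5. The median log2 ratio of ligands was between -0.66 (limit of 200 counts) and -0.18 (limit of 10 counts, which admits Cxcl5), and that of receptors between -1.18 and -1.07. Of 234 recomputed member ratios, 0 reversed and 2 left their main interval, both of Ccl6, at 0.86 under upper-quartile factors and 0.85 with library totals. Scaling moved the median of all genes by less than 0.1. No paired analysis was possible because each group has 1 library. Depth limits Cxcr1, Ccr6, Cxcr5, Ccr9, Cxcr3, Ccl11, Cxcl5, Xcl1 and Cxcl12, each with under 10 fragments in both libraries.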
